A study of Mus musculus with 4 samples.

Results

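Genes of the TGF-beta, activin and BMP pathway were followed in mouse tail epidermis in which the Hedgehog pathway was switched on and Sox9 was either deleted or intact. The members were 48 genes chosen by their place in the pathway, with earlier results of these data known. Every probe set annotated to 1 of them was taken. Of these, 47 genes had a probe set, 102 probe sets in all, out of 18193 genes and 45101 probe sets on the arrays. Gdf15 had none under its own symbol. The tested cells were K14CreER:SmoM2:Sox9cKO, called Sox9cKO here (2 arrays), and they were set against K14CreER:SmoM2 cells with Sox9, called SmoM2 (2 arrays). Both genotypes carry K14CreER, a tamoxifen-dependent Cre recombinase driven from a basal keratinocyte promoter, and SmoM2, a constitutively active form of the Hedgehog transducer Smoothened. Both received 2.5 mg of tamoxifen on each of 10 days and were killed 9 weeks after the first dose, and basal interfollicular cells were sorted as integrin alpha 6 positive and CD34 negative. There was no arm without SmoM2, and ages and the number of animals behind an array are not given in the labels, so p-values measure the spread between these arrays only.

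The ligands of this family are secreted dimers that bring together type I and type II receptor kinases. TGF-beta and activin receptors pass the signal on through Smad2 and Smad3, and BMP receptors through Smad1 and Smad5, each joined by Smad4. Latent TGF-beta binding proteins hold TGF-beta in the matrix, secreted and membrane antagonists keep ligands from receptors, and the inhibitory Smads and the Smurf ubiquitin ligases close the loop. TGF-beta and activin are known for restraining keratinocyte growth and for roles in wound repair, while BMP signalling and its antagonists set hair follicle cycling, with the Id genes as classical BMP targets.

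The deleted gene was read first. One of its 3 probe sets had log2 signals of 6.75 and 5.70 in the Sox9cKO arrays, against 10.21 and 10.02 in the SmoM2 arrays, a log2 change of -3.89 (SE 0.31, adjusted p = 0.00171 over all probe sets, limma). The remaining probe sets of Sox9 changed by -0.75 and -0.41 and did not pass (adjusted p = 0.148 and 0.309). Whether these probes lie inside the deleted part of Sox9 is not stated in the labels. The basal keratinocyte markers were bright on every array (8 of 8 measured genes, 8.60 to 13.40 in Sox9cKO and 9.16 to 13.76 in SmoM2), and none passed the test. Their log2 changes ran from -0.87 to 0.12, with a median of -0.43. Itgb4 came nearest to passing (-0.69, adjusted p = 0.0506 over all genes, limma). Cd34 read 3.95 and 3.75 in Sox9cKO and 4.14 and 4.15 in SmoM2, the dimmest of 7 bulge markers. The 7 spanned 3.75 to 11.43 in Sox9cKO and 4.14 to 10.57 in SmoM2, with Lhx2 the brightest. As a guide to dim signal, 5 skeletal muscle genes read between 3.59 and 5.73 over the 4 arrays. Each genotype had 1 array with Y-linked signal (Sox9cKO replicate 1 and SmoM2 replicate 2).

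Of the 47 measured members, 6 rose and 8 fell in Sox9cKO cells at an adjusted p under 0.05 over all genes (limma), and 33 did not pass. In bulk samples, fewer cells of a type and less RNA per cell cannot be told apart. Over all genes 6.19% passed, 2.66% higher and 3.53% lower. The members were chosen with earlier results of these data known, so their share is not an independent result. The median log2 change of the members was -0.02 and that of all genes 0.02, so the members as a set had no common shift. With dim genes left out, 4 rose and 6 fell of the 34 members that remained, against 8.81% of all genes. Ligands made up 6 of the 14 members that passed, from 11 measured, and the receptors supplied 2 of 10. At least 2-fold differences were found in 4 of the members that rose (Tgfb2, Bmp4, Id2 and Id3) and 7 of those that fell (Tgfb3, Inhba, Inhbb, Bmp6, Bambi, Grem1 and Smad2). For Smad2 this held at its brighter probe set only, and its other probe set changed in the opposite direction.

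**Figure D1:**
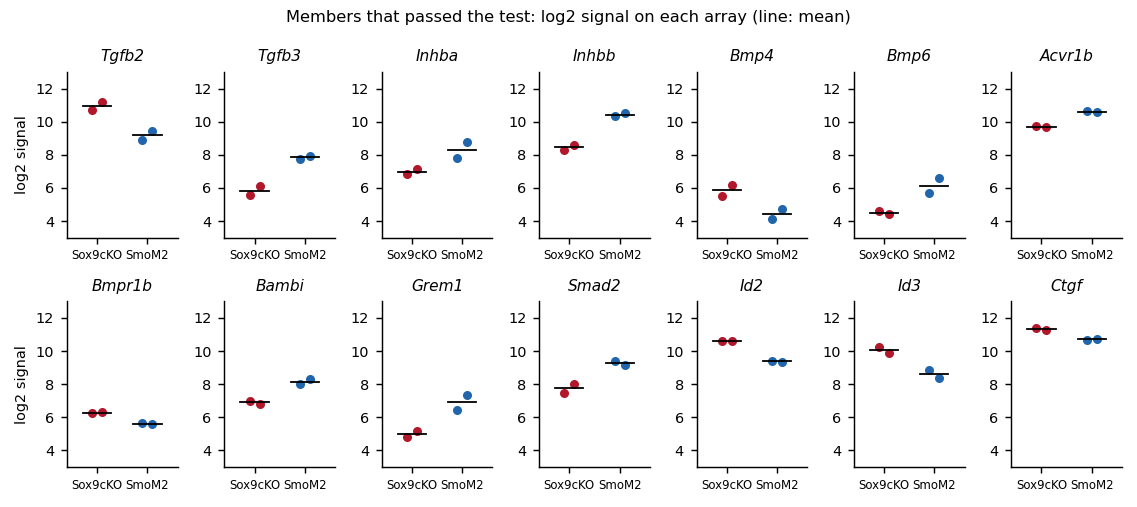
Log2 signal on each array for the 14 members that passed the test, with Sox9cKO arrays in red at the left of each panel, SmoM2 arrays in blue at the right, and a line at each mean (n = 2 each). In all 14 panels the arrays of the 2 genotypes do not overlap, where 47.9% of all genes did not. The panels were chosen by the test on these same arrays. The 2 points of Inhba, Bmp6 and Grem1 lie farther apart in SmoM2 than in Sox9cKO.

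Of the 3 TGF-beta isoforms, 1 rose, 1 fell and 1 did not pass. Tgfb2, the isoform known for its role in hair follicle formation, measured 10.71 and 11.18 in Sox9cKO, against 8.90 and 9.45 in SmoM2. Every Sox9cKO array lay more than 1 log2 unit above every SmoM2 array, and the gene rose 3.42-fold (log2 1.77, SE 0.23, adjusted p = 0.00548). All 4 of its probe sets passed when each was tested on its own, with changes of 1.74 to 1.92. Tgfb3, the isoform known for its role in palate fusion and wound repair, measured 5.57 and 6.10 in Sox9cKO, against 7.77 and 7.95 in SmoM2. The lower Sox9cKO array lay within the range of the skeletal muscle guide, and Tgfb3 fell 4.08-fold (log2 -2.03, SE 0.20, adjusted p = 0.00171). Tgfb1, the most widely studied isoform, measured 6.00 and 5.72 in Sox9cKO and 6.36 and 6.55 in SmoM2. Its arrays did not overlap, but the change of -0.59 (SE 0.16) did not pass (adjusted p = 0.0853).

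Both activin subunit genes fell. Inhbb, which encodes the beta B subunit, measured 8.28 and 8.60 in Sox9cKO, against 10.35 and 10.49 in SmoM2, and the arrays of the genotypes lay far apart relative to the spread within each. It fell 3.94-fold (log2 -1.98, SE 0.16, adjusted p = 0.000831), the smallest p among the members. Its second probe set changed by -0.44 and did not pass, and with the mean of both the change was -1.21. Inhba, the beta A subunit gene, which is induced in wounded skin, measured 6.82 and 7.13 in Sox9cKO, against 7.83 and 8.77 in SmoM2. SmoM2 replicate 2 was the highest array, and the fall (log2 -1.32, SE 0.29) passed narrowly at adjusted p = 0.0454. Leaving out SmoM2 replicate 2 gave -0.85 (adjusted p = 0.115), leaving out Sox9cKO replicate 1 or 2 gave adjusted p = 0.143 and 0.0669, and the call was also lost with the mean of its probe sets (adjusted p = 0.0664), an intensity trend with a robust prior (0.0622), quantile normalization (0.0548) and a block by Y-linked signal (0.0502).

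Of the BMP ligands, 1 rose and 1 fell. Bmp4, a follicle and dermal ligand, measured 5.53 and 6.19 in Sox9cKO, against 4.14 and 4.71 in SmoM2. It rose by 1.43 on the log2 scale (SE 0.26, adjusted p = 0.0220). Both SmoM2 arrays and Sox9cKO replicate 1 lay within the range of the skeletal muscle guide, so that the size of the fold is not exact. Sox9cKO replicate 2 alone lay above that range. The call was lost without SmoM2 replicate 1 (adjusted p = 0.131) and without Sox9cKO replicate 2 (adjusted p = 0.0593). Bmp6, a ligand expressed in differentiating epidermis, measured 4.60 and 4.43 in Sox9cKO, against 5.69 and 6.57 in SmoM2. It fell by 1.61 on the log2 scale (SE 0.27, adjusted p = 0.0153). Both Sox9cKO arrays and SmoM2 replicate 1 lay within the guide range, so that this size is not exact either. SmoM2 replicate 2 alone lay above that range. Bmp2, a close relative of Bmp4, lay within the guide range except in Sox9cKO replicate 2. It measured 5.28 and 6.15 in Sox9cKO and 4.62 and 4.73 in SmoM2. Its change of 1.04 (SE 0.27) did not pass (adjusted p = 0.0743), but passed without Sox9cKO replicate 1 (1.47, adjusted p = 0.00462), while without Sox9cKO replicate 2 it was 0.60 (adjusted p = 0.145). Bmp7 was bright, at 9.40 and 9.23 in Sox9cKO and 9.56 and 9.63 in SmoM2, and its change of -0.28 did not pass (adjusted p = 0.364). Bmp8a and the BMP3-related Gdf10 stayed within the guide range on all 4 arrays.

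The latent TGF-beta binding proteins gave no call among 4 measured genes. Their log2 changes ran between -0.39 for Ltbp2 and 0.40 for Ltbp3, with Ltbp1 at 0.23 and Ltbp4 at -0.33, and adjusted p of 0.289 or more. Ltbp2 lay within the guide range on every array.

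**Figure D2:**
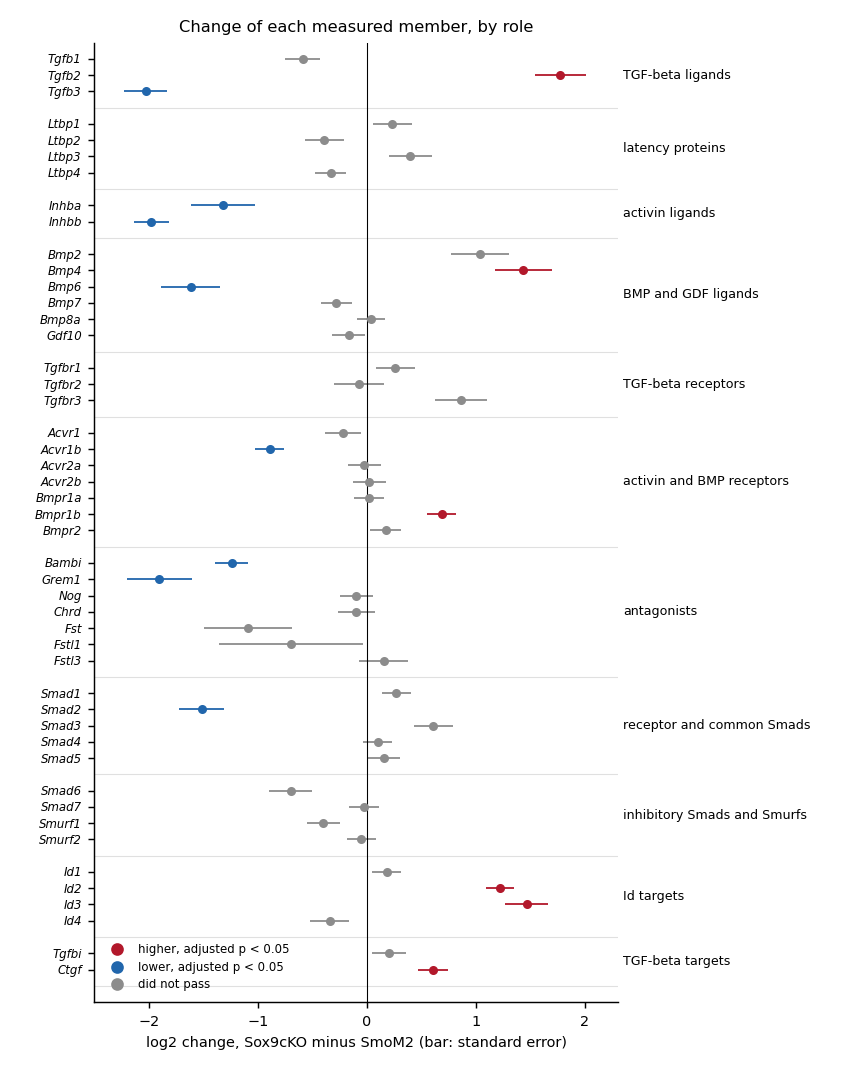
Log2 change (Sox9cKO minus SmoM2, horizontal axis, with the standard error as a bar) of the 47 measured members, arranged by role from ligands at the top to targets at the bottom. Red points rose and blue points fell at an adjusted p under 0.05, and grey points did not pass. The ligands span -2.03 to 1.77, while the receptors lie between -0.89 and 0.86.

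The receptors had log2 changes between -0.89 and 0.86. Tgfbr1, the type I TGF-beta receptor, changed by 0.26 (SE 0.18), and Tgfbr2, the type II receptor, by -0.07 (SE 0.23). The BMP type I receptor Bmpr1a changed by 0.02 (SE 0.14) and the BMP type II receptor Bmpr2 by 0.17 (SE 0.14). Acvr2a and Acvr2b, the type II activin receptors, changed by -0.02 and 0.02, and Acvr1, a type I receptor for BMPs, by -0.22. None of these 7 passed (adjusted p of 0.528 or more). Tgfbr3, betaglycan, a co-receptor that presents TGF-beta2, measured 7.43 and 7.69 in Sox9cKO and 7.05 and 6.33 in SmoM2. Its change of 0.86 (SE 0.24) did not pass (adjusted p = 0.0962), but passed without SmoM2 replicate 1 (1.22, adjusted p = 0.0353), while without SmoM2 replicate 2 it was 0.50 and did not pass.

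Receptors that passed were 1 for activin and 1 for BMP. Acvr1b, the type I activin receptor, measured 9.71 and 9.70 in Sox9cKO, against 10.63 and 10.56 in SmoM2, with both pairs of arrays nearly equal. It fell 1.86-fold (log2 -0.89, SE 0.13, adjusted p = 0.00911). A dimmer probe set of Acvr1b changed by 0.26 and did not pass, and the mean of both gave -0.32 (adjusted p = 0.210). Without SmoM2 replicate 1 or 2 the adjusted p was 0.0662 and 0.0542. Bmpr1b, a BMP type I receptor with a narrower expression than Bmpr1a, measured 6.25 and 6.33 in Sox9cKO, against 5.63 and 5.58 in SmoM2. It rose by 0.69 on the log2 scale (SE 0.13, adjusted p = 0.0267), with both SmoM2 arrays within the guide range, so that the size is not exact. The call was lost whichever single array was left out (adjusted p of 0.0746 to 0.138), with the mean of its probe sets (adjusted p = 0.118) and with the block by Y-linked signal (adjusted p = 0.0533).

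Of 7 measured antagonists 2 fell and none rose, where 3.53% of all genes fell and 2.66% rose. A negative log2 change was found for 6 of the 7, and for 8419 of all 18193 genes. Among these 6, Nog and Chrd changed by only -0.10 each. Grem1, gremlin, a secreted BMP antagonist, measured 4.79 and 5.21 in Sox9cKO, against 6.45 and 7.35 in SmoM2. It fell by 1.90 on the log2 scale (SE 0.29, adjusted p = 0.0110), and since both Sox9cKO arrays lay within the guide range the size is not exact. Bambi, a decoy receptor without a kinase domain, measured 7.01 and 6.83 in Sox9cKO, against 8.04 and 8.29 in SmoM2. It fell 2.37-fold (log2 -1.24, SE 0.15, adjusted p = 0.00437), well beyond the spread in either genotype. Noggin (Nog) and chordin (Chrd), both secreted BMP antagonists, stayed within the guide range on all arrays.

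Fst and Fstl1 had the widest spread between arrays of 1 genotype among the members. Fst, follistatin, which binds activin, measured 8.69 and 9.26 in Sox9cKO and 9.39 and 10.73 in SmoM2 at the probe set that stands for the gene. SmoM2 replicate 2 was far above the rest, and the change of -1.09 (SE 0.41) did not pass (adjusted p = 0.212), but did without SmoM2 replicate 1 (-1.76, adjusted p = 0.0319), while without SmoM2 replicate 2 it was -0.42 (adjusted p = 0.544). Its other probe set measured 8.39 and 8.73 in Sox9cKO, against 9.51 and 10.22 in SmoM2, and passed among probe sets (log2 -1.31, SE 0.25, adjusted p = 0.0371). That call was lost without SmoM2 replicate 2 (adjusted p = 0.0995) and without Sox9cKO replicate 1 (adjusted p = 0.156) or 2 (adjusted p = 0.0708). Fstl1, a secreted follistatin-like glycoprotein, measured 8.13 and 5.68 in Sox9cKO and 7.70 and 7.50 in SmoM2. Sox9cKO replicate 1 was the highest array and Sox9cKO replicate 2 the lowest by far. The mean change of -0.70 (SE 0.66) did not pass (adjusted p = 0.684). Without Sox9cKO replicate 1 it was -1.92 (adjusted p = 0.00176), and without Sox9cKO replicate 2 it was 0.53 (adjusted p = 0.231). Fstl3, an activin-binding protein, changed by 0.15 (adjusted p = 0.815).

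The Smads that carry the signal changed at 1 of 5 genes. Smad2, which transmits TGF-beta and activin signals, measured 7.49 and 8.03 in Sox9cKO, against 9.42 and 9.13 in SmoM2 at its brighter probe set. It fell 2.86-fold there (log2 -1.52, SE 0.21, adjusted p = 0.00644). The second Smad2 probe set read 8.92 and 8.51 in Sox9cKO and 7.79 and 7.94 in SmoM2, a change of 0.85 (SE 0.18, adjusted p = 0.0548 among probe sets). At both probe sets the arrays of the genotypes did not overlap, in opposite order, and the mean of the 2 gave -0.33 (adjusted p = 0.180). The direction for Smad2 therefore depends on the probe set, and without SmoM2 replicate 1 the fall missed the threshold (-1.37, adjusted p = 0.0586). Smad3, the partner of Smad2, measured 9.41 and 9.20 in Sox9cKO and 8.49 and 8.90 in SmoM2, a change of 0.61 (SE 0.18) that did not pass (adjusted p = 0.113). The BMP-side Smad1 and Smad5 changed by 0.27 and 0.16 and the shared Smad4 by 0.10, with adjusted p of 0.374 or more.

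Among the inhibitory Smads and Smurfs none of 4 passed, with log2 changes between -0.70 and -0.02. Smad6, which restrains BMP signals, measured 6.39 and 6.18 in Sox9cKO and 7.24 and 6.73 in SmoM2, a change of -0.70 (SE 0.19, adjusted p = 0.0962). Smad7, the general inhibitory Smad and a feedback target of TGF-beta, changed by -0.02 (SE 0.14). The ubiquitin ligases Smurf1 and Smurf2 changed by -0.40 and -0.05.

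Of the 4 Id genes, which encode inhibitors of basic helix-loop-helix factors, 2 rose. Id3 measured 10.25 and 9.91 in Sox9cKO, against 8.84 and 8.39 in SmoM2. The lowest Sox9cKO array lay more than 1 log2 unit above the highest SmoM2 array, a rise of 2.76-fold (log2 1.47, SE 0.20, adjusted p = 0.00632). Id2 measured 10.59 and 10.63 in Sox9cKO, against 9.41 and 9.37 in SmoM2, with almost no spread within a genotype. It rose 2.33-fold (log2 1.22, SE 0.13, adjusted p = 0.00249), and 2 of its 3 probe sets passed on their own while the dimmest changed by 1.03 (adjusted p = 0.106). Id1 was bright at 10.99 and 10.85 in Sox9cKO and 10.76 and 10.72 in SmoM2. Its change of 0.18 (SE 0.14) did not pass (adjusted p = 0.589), nor did that of Id4, -0.34 (adjusted p = 0.403). Whether the Id genes differed from each other in their change was not tested.

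The classical TGF-beta targets were bright. Ctgf (now Ccn2), a matricellular protein, measured 11.39 and 11.24 in Sox9cKO, against 10.70 and 10.72 in SmoM2. It rose 1.52-fold (log2 0.61, SE 0.14) at adjusted p = 0.0469, a call lost with any single array left out (adjusted p of 0.0936 to 0.189) and with the block by Y-linked signal (adjusted p = 0.0842). Tgfbi, a secreted matrix protein induced by TGF-beta, changed by 0.20 (adjusted p = 0.602), and its 4 probe sets gave 0.20 to 0.45 with none passing.

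**Figure D3:**
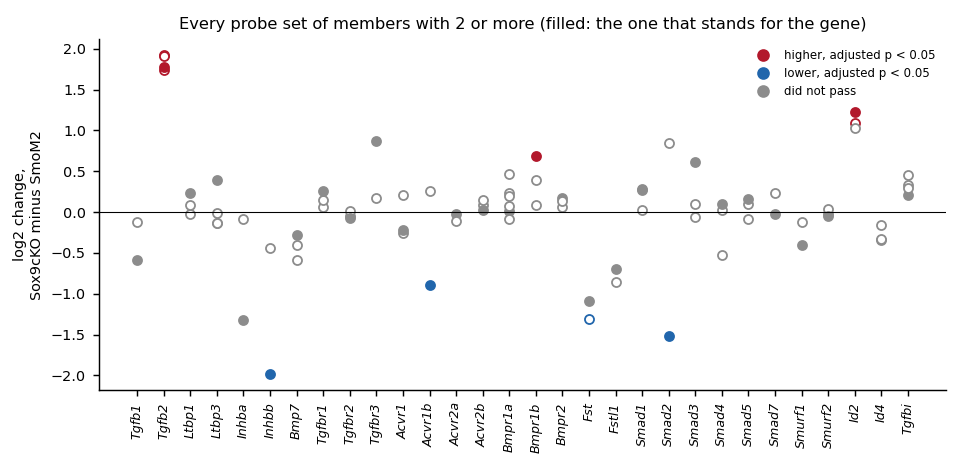
Log2 change (Sox9cKO minus SmoM2, vertical axis) of every probe set of the 30 members that have 2 or more, with the probe set that stands for the gene filled and the others open, and colours marking probe sets that passed over all probe sets. The 4 probe sets of Tgfb2 lie together between 1.74 and 1.92. Those of Smad2 lie at -1.52 and 0.85.

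Tested one by one over all probe sets, 9 of the 102 member probe sets were higher and 8 lower. Over all 45037 non-control probe sets 3.82% passed, 1.48% higher and 2.34% lower. They belonged to 13 genes, of which Tgfb2 and Id2 had more than 1. Fst entered this count, and Inhba (adjusted p = 0.0669) and Ctgf (adjusted p = 0.0727) were not in it. The arrays of the genotypes did not overlap for 35 of the 47 member genes, where 47.9% of all genes did not overlap. With 2 arrays in each genotype the smallest p of an exact two-sided permutation test is 0.333, and the calls use the variance that limma pools over genes.

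**Figure D4:**
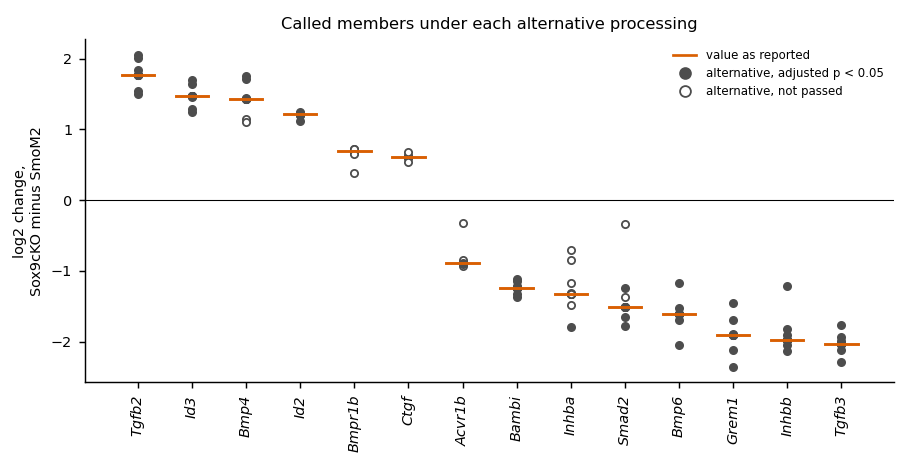
Log2 change (Sox9cKO minus SmoM2, vertical axis) of the 14 members that passed, ordered by size, as reported (orange line) and under each alternative processing (circles, filled where the adjusted p stayed under 0.05 and open where it did not). No circle crosses 0. The circles of Tgfb2, Id3, Id2, Bambi, Bmp6, Grem1, Inhbb and Tgfb3 are all filled.

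The 250 bases before the annotated start of a ligand gene that rose (Tgfb2), a ligand gene that fell (Inhbb) and the Id genes that rose are shown because they stand at the start and the end of the pathway. They come from RefSeq on GRCm38.p6, where 36 of the 48 members have an entry. Tgfb2 is read from chr1:186705990-186706239 (minus strand), Inhbb from chr1:119422249-119422498 (minus strand), Id2 from chr12:25096093-25096342 (minus strand) and Id3 from chr4:136143572-136143821 (plus strand). Capitals mark 3 motifs searched on both strands: GGCGCC, a GC-rich element bound by Smad1 and Smad5, CAGAC (or GTCTG), an element of Smad3 and Smad4, and AACAAT (or ATTGTT), a core element of SOX factors.
Tgfb2: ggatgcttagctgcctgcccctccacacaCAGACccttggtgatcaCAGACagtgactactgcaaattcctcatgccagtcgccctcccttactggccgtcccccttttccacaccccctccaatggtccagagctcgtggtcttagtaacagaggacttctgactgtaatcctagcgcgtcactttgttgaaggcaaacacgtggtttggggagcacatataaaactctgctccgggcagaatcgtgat
Inhbb: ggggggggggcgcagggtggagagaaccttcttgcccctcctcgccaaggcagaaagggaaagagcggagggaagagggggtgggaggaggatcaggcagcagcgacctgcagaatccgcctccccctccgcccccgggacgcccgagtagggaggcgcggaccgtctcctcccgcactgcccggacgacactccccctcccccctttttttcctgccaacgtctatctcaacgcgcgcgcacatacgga
Id2: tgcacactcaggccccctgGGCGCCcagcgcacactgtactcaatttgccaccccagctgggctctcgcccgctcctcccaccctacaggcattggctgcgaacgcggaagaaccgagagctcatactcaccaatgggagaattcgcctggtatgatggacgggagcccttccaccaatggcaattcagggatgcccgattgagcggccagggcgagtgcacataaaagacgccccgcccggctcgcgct
Id3: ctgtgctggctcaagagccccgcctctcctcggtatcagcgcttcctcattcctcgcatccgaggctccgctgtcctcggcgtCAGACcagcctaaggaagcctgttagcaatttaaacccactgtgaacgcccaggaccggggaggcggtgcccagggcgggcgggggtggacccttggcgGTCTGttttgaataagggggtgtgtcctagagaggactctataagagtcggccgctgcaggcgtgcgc
GGCGCC occurred once in the Id2 window. CAGAC occurred at 2 places in the Tgfb2 window and at 2 places in the Id3 window. Inhbb had none of the 3 motifs. No window held AACAAT, and none of the marked motifs overlapped another. Among all 32851 windows of this length in the table, 9.59% held GGCGCC, 42.2% held CAGAC and 9.42% held AACAAT. Among 45 windows of members, 12 held GGCGCC, 23 held CAGAC and 3 held AACAAT. These are matches of letters, not sites of binding.

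Beyond the members, 89 further genes of the pathway were listed, also with earlier results of these data known, and 80 were measured. Of these, 5 rose and 7 fell at an adjusted p under 0.05, 15% in all. Over all genes 6.19% passed, 2.66% higher and 3.53% lower. The median log2 change of the 80 genes was -0.01, and some genes stand in more than 1 list. The genes that activate or store latent TGF-beta had the most calls, 1 higher and 3 lower of 10 measured. Fbn2, fibrillin 2, a microfibril protein on which latent complexes are stored, measured 6.84 and 6.56 in Sox9cKO, against 9.40 and 9.56 in SmoM2, and fell 6.84-fold (log2 -2.77, SE 0.16, adjusted p = 0.000291). Itgb8, a beta subunit of an integrin that activates latent TGF-beta, measured 7.84 and 7.16 in Sox9cKO, against 10.02 and 10.32 in SmoM2, and fell 6.34-fold (log2 -2.66, SE 0.24, adjusted p = 0.00113). The related subunit gene Itgb6 fell by 1.03 on the log2 scale (adjusted p = 0.0134), a call lost without SmoM2 replicate 1 or 2 (adjusted p = 0.0941 and 0.0736) and with the mean of its probe sets (-0.72, adjusted p = 0.0636). Dcn, decorin, a proteoglycan that binds TGF-beta, measured 12.09 and 12.78 in Sox9cKO, against 8.85 and 8.70 in SmoM2. It rose 12.6-fold (log2 3.66, SE 0.23, adjusted p = 0.000446), or 5.64-fold with the mean of its probe sets. Thbs1, an activator of latent TGF-beta, changed by 0.63 and did not pass (adjusted p = 0.101).

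The remaining lists had fewer calls. Bmper, a secreted regulator of BMPs, measured 7.22 and 6.84 in Sox9cKO, against 5.09 and 5.03 in SmoM2, a log2 rise of 1.97 (SE 0.16, adjusted p = 0.000921) whose size is not exact, since both SmoM2 arrays lay within the guide range. Htra1, a secreted protease, fell by 0.86 (adjusted p = 0.0294). They were the only calls among 15 other antagonists. Sostdc1, a BMP antagonist of skin, was bright at 12.06 and 12.09 in Sox9cKO and 12.56 and 12.39 in SmoM2 and did not pass (-0.40, adjusted p = 0.178). Neo1, a co-receptor for repulsive guidance molecules, rose by 1.18 (adjusted p = 0.0295), the only call among 9 other receptors and co-receptors. None of 16 genes listed as other ligands passed by limma. Among them Bmp1, a protease rather than a ligand, alone had an unadjusted p under 0.05 (log2 change 0.32). Apart from Bmp1, Lefty1 and Inha, these genes stayed within the guide range on all 4 arrays. Of 19 intracellular regulators 3 fell: Cited2, a transcriptional co-regulator, by 1.19, Dab2, an adaptor protein, by 0.89, and Nedd4l, a ubiquitin ligase, by 0.85. Dab2 read 4.66 and 4.66 in Sox9cKO and 5.48 and 5.63 in SmoM2, within the guide range on all 4 arrays.

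Among 14 other target genes of TGF-beta or BMP, 2 rose and none fell. Msx2, a homeobox gene induced by BMP, measured 7.51 and 7.14 in Sox9cKO, against 5.92 and 5.72 in SmoM2, with a 2.83-fold rise (adjusted p = 0.00315) that was 1.62-fold with the mean of its probe sets. Dlx3, a homeobox gene of differentiating epidermis and hair, measured 7.50 and 6.37 in Sox9cKO, against 5.40 and 5.51 in SmoM2, and rose by 1.48 (adjusted p = 0.0451), with both SmoM2 arrays within the guide range. That call was lost without SmoM2 replicate 1 or 2 (adjusted p = 0.219 and 0.184) and with the intensity trend (adjusted p = 0.0729). Pmepa1, Klf10 and Skil, which TGF-beta induces, changed by -0.75, -0.57 and -0.34 and did not pass (adjusted p of 0.0673 to 0.227). The calls of Neo1, Htra1 and Nedd4l were each lost with SmoM2 replicate 1 or 2 or with 1 of the Sox9cKO arrays left out, those of Cited2 with either SmoM2 array and that of Dab2 with SmoM2 replicate 2. With the mean of probe sets the calls of Dab2 (adjusted p = 0.0935), Neo1 (adjusted p = 0.0723) and Nedd4l (adjusted p = 0.164) were also lost.

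**Figure D5:**
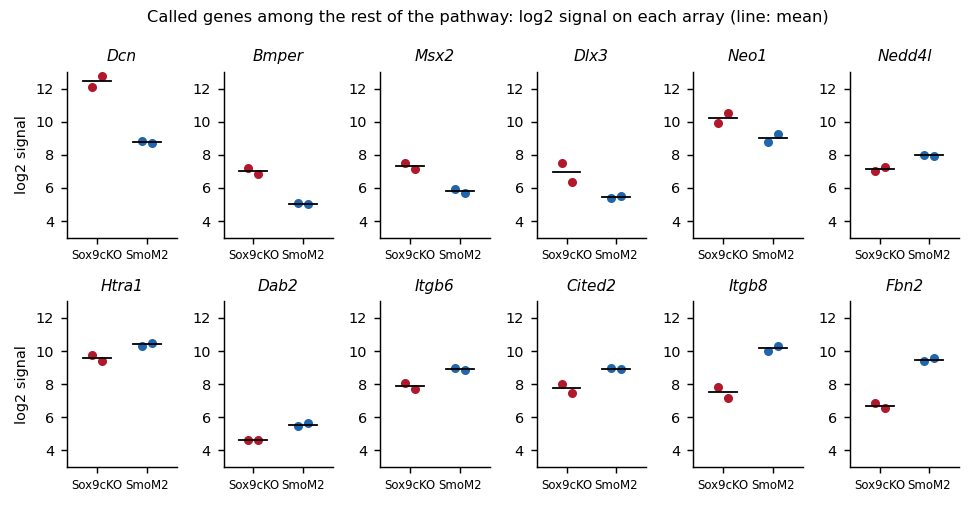
Log2 signal on each array for the 12 genes that passed among the 80 measured genes of the rest of the pathway, with Sox9cKO in red at the left and SmoM2 in blue at the right of each panel and a line at each mean (n = 2 each). The panels run from the largest rise (Dcn, 3.66) to the largest fall (Fbn2, -2.77). The arrays of the genotypes do not overlap in any of them, where 47.9% of all genes did not. The panels were chosen by the test on these same arrays.

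Markers of other cells were read beside these values. Fibroblast markers (0 of 7 passing, 3.81 to 6.59 in Sox9cKO and 3.71 to 6.89 in SmoM2) and endothelial markers (0 of 6 passing, 3.52 to 6.48 in Sox9cKO and 3.61 to 6.57 in SmoM2) were dim in both genotypes, Col1a1 at 4.38 and 4.17 in Sox9cKO and 4.51 and 4.08 in SmoM2. Of 5 suprabasal markers 2 passed, both higher (Lor by 1.56 and Flg by 1.82), and the list had a summed signal of 13.90 and 14.37 on the log2 scale, against 13.89 and 13.61 in SmoM2. Of 6 measured sebocyte markers 2 passed, both lower (Plin2 and Cidea), with overlapping summed signals of 12.56 and 12.35 in Sox9cKO and 13.05 and 12.49 in SmoM2. Of 8 Langerhans and myeloid markers H2-Aa alone passed, higher by 1.87, with a summed signal of 8.85 and 8.79 in Sox9cKO, against 8.34 and 8.07 in SmoM2. Ptprc, carried by all white blood cells, read 3.86 and 4.07 in Sox9cKO and 4.01 and 3.57 in SmoM2. Of 4 measured T cell markers Thy1 alone passed, higher by 1.99. The summed signal of the list, Thy1 included, was 7.74 and 7.96 in Sox9cKO, against 6.93 and 6.81 in SmoM2. Cd3e, Cd3g and Cd3d changed by 0.19, 0.15 and 0.15 and did not pass. Sox2 fell among 5 Merkel cell markers, and none of 7 melanocyte or 6 smooth muscle markers passed. Bulge markers also differed, with Foxc1, Nfatc1 and Lrig1 lower and Lhx2 higher among 7. The part of these cell states in the pathway values was not tested.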

How the data were processed

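Total RNA (100 ng per sample) was used for Affymetrix 3' arrays, per the labels' protocols. The authors deposited log2 signals for each probe set, a scale taken here from their range, and array medians were 5.45 to 5.48. How they were normalized and summarised is not stated in the labels. The submitters' processing notes list R 2.14.0. A shift shared by most genes may have been removed before deposit.

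Of 45101 probe sets, 64 were controls, 34958 had 1 symbol, 932 several and 9160 none. Symbols were updated through the entrez ID. Each of 18193 genes was represented by its brightest probe set (mean over the 4 arrays). One probe set shared by Acvr2a and another gene was left out. Sox9cKO arrays were compared with SmoM2 arrays with limma 3.58.1 in R 4.3.3 (lmFit and eBayes, two-sided, without covariates). Benjamini-Hochberg adjustment covered all genes, or all non-control probe sets, at a threshold of 0.05. Arrays give no read depth, so their number limits the precision. The procedure was tested on simulated data drawn from the variance model that limma fitted, with independent arrays. That test does not check whether these arrays follow the model. All members are accounted for, with values at the probe set that stands for the gene for those that passed. Their other probe sets are described in part, and called genes of the rest of the pathway are named. The members and lists were chosen with earlier results of these data known. Alternatives were averaging the probe sets of each gene, _x_at and _s_at probe sets left out, dim genes left out (mean under 6.53, the median), an intensity trend with a robust prior, quantile normalization, replicate or Y-linked blocks and each array left out.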

Additional observations from a re-analysis of the deposited data

How the results depend on the processing

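All 14 members that passed kept their direction under each alternative that tested them, 11 for 10 members and 10 for Bmp4, Bmp6, Bmpr1b and Grem1, which leaving out dim genes removed. Of the 14, 8 (Tgfb2, Tgfb3, Inhbb, Bmp6, Bambi, Grem1, Id2 and Id3) passed in every gene-level alternative that tested them and 6 lost the call in at least 1, as given with each gene. Among single probe sets, Bmp6, Grem1 and Id3 missed the threshold without Sox9cKO replicate 1 (adjusted p = 0.0761, 0.0814 and 0.0522), and Bmp6 also without Sox9cKO replicate 2 (0.103). Leaving out 1 array gave 199 to 404 genes higher and 335 to 502 lower, 3 to 5 members higher, 3 to 5 and 2 to 7 genes of the rest of the pathway higher and lower, and 5 to 8 member probe sets lower. When probe sets were averaged per gene 5 members fell, and 4 genes of the rest of the pathway. With dim genes left out 3 of the latter rose. Replicate numbers are shared between genotypes but the labels tie them to no animal or day, and deviations of same-numbered arrays correlated at 0.09 over genes. With the replicate block, 879 genes were higher and 1040 lower, 9 members were higher and 11 lower, 14 member probe sets were higher, and the Sox9 probe set with the change of -0.75 passed (adjusted p = 0.0108). A block by Y-linked signal, chosen after seeing the data, gave 5 members higher and 7 lower. A genotype left with 1 array took its variance from the other genotype. The causes of these shifts were not tested. With 2 arrays per genotype, differences between dim genes are poorly bounded.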

Other observations

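Fstl1 stood apart in how much it differed between the Sox9cKO arrays. It was 5.46-fold higher in Sox9cKO replicate 1 than in replicate 2 (a difference of 2.45 on the log2 scale), and its second probe set read 7.97 and 5.52 in Sox9cKO and 7.62 and 7.57 in SmoM2. Only 8 of 18193 genes differed by that much between the Sox9cKO arrays, where the median absolute difference was 0.15. The others were the Y-linked Eif2s3y, Kdm5d and Uty, the keratins Krt2 and Krt77, which were the 2 genes higher in replicate 2, the peptidylarginine deiminase Padi3, and Nt5e, an ecto-nucleotidase, at 10.13 and 7.31 in Sox9cKO and 9.25 and 9.92 in SmoM2. Among the other members no difference between the Sox9cKO arrays was above 0.87. These genes were looked up after the values of Fstl1 had been seen, and no explanation was tested.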
